A study of Oryctolagus cuniculus with 20 samples.

Results

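The genes described here are 49 genes of rabbit tricuspid valve whose symbols begin like those of immune receptors, cytokines and interferon-related factors, out of 23669 genes counted. They were chosen by symbol from the study's supplementary list of differentially expressed genes (DEGs): a gene belongs when its symbol starts with CD or IL and a digit, CCL, CXCL, CCR, CXCR, CSF, TLR, IRF, STAT and a digit, IFI, IFN, NFKB, TNFR, TNFS, TNFA, C1Q, C1R, C1S or HLA, and its identifier is among the counted genes. Since that list holds genes that differed between groups in these same valves, the values of each treatment against the non-treated valves selected the genes, and they are given as a description that supports nothing. Of 57 symbols with such a beginning, 49 had an identifier among the counted genes. Another 6, among them IFIT3, IFNGR1, IL33, IL34 and TNFRSF19, are listed with 1 zero too many in the identifier and were kept apart, and 2 (CCL21 and NFKBIE) have a shortened identifier and were not analysed here.

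The name of an immune set fits the 49 genes in part. CD numbers are given to surface antigens of any cell, and 8 of the genes (CD2AP, CD9, CD34, CD36, CD63, CD109, CD164 and CD200) occur on or in many cell types, CD2AP being an adapter protein whose symbol only begins alike. Another 4 are C1q and TNF related proteins, which are secreted factors named after a domain shared with complement C1q. No interferon, no HLA gene and no gene whose symbol begins with IFI, IFN or CCR was among the 49, so that the members named after interferon are the transcription factors IRF2 and IRF9, beside the interferon-induced chemokine CXCL10.

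RNA was sequenced from tricuspid valves of female New Zealand White rabbits, aged 8 weeks at the start, with 5 valves from different animals in each of 4 groups. For 16 weeks the treated groups received in their drinking water 80 mg/kg/day of serotonin, 0.5 mg/kg/day of pergolide, an ergot-derived dopamine agonist, or, by the labels, 20 mg/kg/day of dexfenfluramine, an amphetamine-like appetite suppressant (one passage of the study gives a lower dose), and the non-treated group received water. No agent was given at more than 1 dose, so that agent and dose cannot be told apart. The comparisons ask how the valve's transcriptome differs after each treatment and between treatments.

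The gene counts of a valve added up to between 3247091 and 5921025 reads. Levels are given in CPM, read counts scaled to library sizes corrected by edgeR's TMM factors, and differences as log2 fold changes with their standard errors (SE). DEGs were called at a Benjamini-Hochberg adjusted p under 0.05 over the 8683 genes tested with edgeR's quasi-likelihood test. Of the 49 genes, 47 passed the filter on low counts and were tested. CD247, the zeta chain of the T cell receptor, had 13, 38, 59 and 20 reads in total over the non-treated, serotonin, pergolide and dexfenfluramine valves, and the cytokine IL17B had 31, 12, 17 and 31; neither was tested.

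Some libraries stood apart. Non-treated replicate 3 and dexfenfluramine replicate 3 had the lowest mean correlation with the other valves of their groups (0.953 and 0.946, log2 CPM across genes). The most abundant gene, ENSOCUG00000029084, took 28.5% and 20.3% of their counts, the smallest shares of their groups. This share also moved with the groups, from 40.7% ± 7.39 (SD, n = 5) in non-treated valves to 35.9% ± 4.07 after serotonin, 32.9% ± 2.13 after pergolide and 29.1% ± 5.65 after dexfenfluramine. Its part in the results below was not tested directly, and counts are given with that gene left out and without both valves.

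Complement is a cascade of plasma and tissue proteins whose classical pathway starts with C1q, C1r and C1s, and membrane regulators such as CD55 and CD59 protect the body's own cells from it. Chemokines, interleukins, interferons and TNF family ligands act through surface receptors that signal to transcription factors of the STAT, IRF and NF-κB families. Heart valve leaflets consist mainly of interstitial cells and matrix under an endothelium, and they also hold resident macrophages.

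Pergolide valves and dexfenfluramine valves carried most of the DEGs among these genes, and serotonin valves carried few, as over all tested genes. In pergolide against non-treated valves 22 of 47 genes were called (46.8%), beside 24.8% of all tested genes. Of these, 14 were higher, beside 12.1% of all genes, and 8 were lower, beside 12.7%. Dexfenfluramine gave 26 calls of 47 (55.3%), beside 28.9% of all genes, with 19 genes higher, beside 13.5%, and 7 lower, beside 15.4%. Serotonin gave 2 calls (4.26%), beside 1.19% of all genes. Both were higher, beside 1.04% of all genes called higher and 0.15% called lower.

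A more like comparison is with the 3456 tested genes that have a symbol, which come from the same list of DEGs. Among those, 1.62% were called for serotonin, 56.7% for pergolide and 66.1% for dexfenfluramine. The shares among the 47 genes were below those of this list for both drugs and above it for serotonin. The counts of calls in smaller groups of genes below are to be set beside these shares, which are not repeated each time. Nothing about these genes is read from the counts, or from the medians here and below, because the same contrasts chose them. All tested genes were not so chosen and are not a like comparison for the medians. The median log2 fold change of the 47 genes was 0.08 for serotonin, 0.33 for pergolide and 0.38 for dexfenfluramine, and that of all tested genes was 0.01, 0.02 and 0.03.

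The 3 comparisons share the non-treated valves. Side by side, 17 genes were called for both drugs with the same sign, 11 higher and 6 lower, 5 were called for pergolide alone, 9 for dexfenfluramine alone and 16 for no treatment. No gene was called in opposite directions for different treatments. The calls lay close to the threshold for several genes. By edgeR's quasi-likelihood test with Benjamini-Hochberg adjustment, the last gene inside and the first outside were CD164 (adjusted p = 0.0474) and C1QTNF3 (0.0585) for serotonin. They were CD200 (0.0406) and CSF1 (0.0505) for pergolide, and IL1R1 (0.0499) and C1QB (0.0501) for dexfenfluramine.

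Without non-treated replicate 3 and dexfenfluramine replicate 3, the counts were 5 for serotonin, 24 for pergolide and 23 for dexfenfluramine. The 2 serotonin calls of the full fit, 21 of the 22 pergolide calls and 20 of the 26 dexfenfluramine calls were among them. Over all genes that fit gave 481, 2475 and 2462 calls, where the full fit gave 103, 2157 and 2510. With the most abundant gene left out, the counts were 1, 22 and 24, and over all genes 37, 2151 and 2470. Whichever 1 valve was left out, 16 of the 22 pergolide calls and 16 of the 26 dexfenfluramine calls were kept, and 0 of the 2 serotonin calls. The serotonin count was 0 without non-treated replicate 2 or 5 or serotonin replicate 1, 1 without non-treated replicate 4 or serotonin replicate 2, 4 or 5, 4 without serotonin replicate 3 and 5 without non-treated replicate 3. Over all genes the calls of this comparison numbered 103 in the full fit and 0 in each of the 3 fits without a call here, from 3 to 50 in the fits with 1, and 131 and 257 in those with 4 and 5. When 4 svaseq variables, which capture variation that the groups leave unexplained, entered the edgeR fit, 12 of the pergolide calls and 8 of the dexfenfluramine calls were kept, out of 15 and 8 calls in all. All genes together fell from 2157 to 1115 calls for pergolide and from 2510 to 944 for dexfenfluramine in that fit, so that calls were lost among genes in general. Apart from svaseq variables and left-out valves, the other alternatives at the same threshold ended calls of CD164 and CD63 for serotonin, of CD200, CSF2RB and TLR1 for pergolide and of CD9, CD109, CD200, CSF2RB, IL1R1 and NFKB1 for dexfenfluramine. With 1 RUVr factor every call was kept and the counts were 7, 26 and 36, beside 538, 2842 and 3197 calls over all genes.

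**Figure D1:**
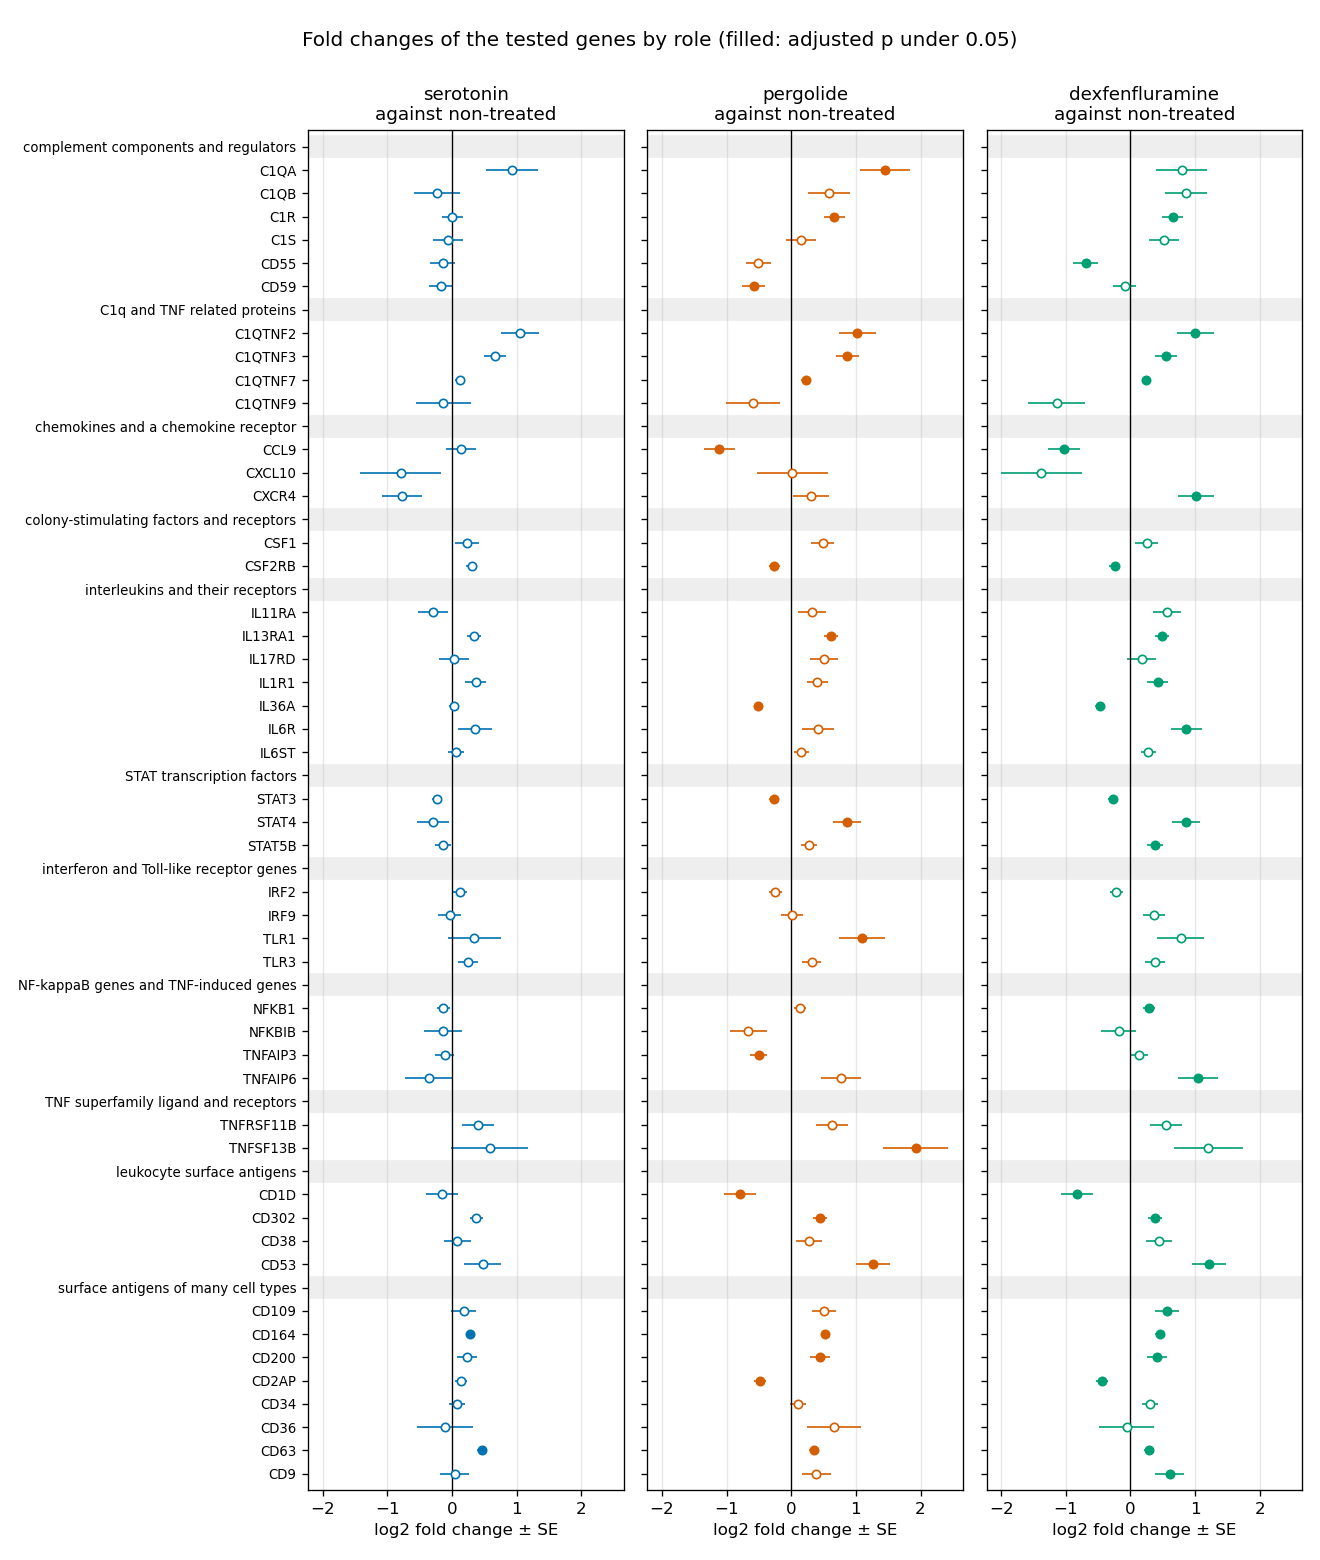
Log2 fold change of each of the 47 tested genes against non-treated valves (horizontal axis, bars: SE from edgeR's fit), ordered by role, for serotonin, pergolide and dexfenfluramine, 5 valves per group; filled points are genes called at an adjusted p under 0.05. Filled points number 2 for serotonin, 22 for pergolide and 26 for dexfenfluramine.

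Markers of cell types were measured in the same valves, since in whole valves a change in the number of cells of a type and a change in RNA per cell cannot be told apart. Symbols were available for few leukocyte markers: 3 of 28 macrophage markers (C1QA, C1QB and LAPTM5), 4 of 26 pan-leukocyte markers (CD53, ARHGDIB, CSF2RB and LAPTM5), and 1 each for T and NK cells (CD247), B and plasma cells (XBP1) and neutrophils and mast cells (GATA2). None of the matched markers was at 0 in all valves. The others, PTPRC, CD3E, CD68 and CSF1R among them, were not analysed here, and neither were the erythroid markers, so the labels of leukocyte types rest on very few genes. All of these symbols come from the list of DEGs.

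The summed level of the macrophage markers, of which LAPTM5 was the most abundant, was 46.9, 37.9, 46.2, 29.4 and 47.2 CPM in non-treated valves 1 to 5 and 31.4, 42.4, 41.2, 42.4 and 66 CPM after serotonin. After pergolide it was 61.7, 86.3, 47.2, 67.7 and 76.7 CPM and after dexfenfluramine 63.9, 68.9, 59.6, 58 and 73.1 CPM. All dexfenfluramine and pergolide valves and serotonin replicate 5 were above the non-treated valves, pergolide replicate 3 by very little. In serotonin replicate 5 C1QA alone gave 29.2 CPM of the sum, beside 7.22 to 13.9 CPM in the other serotonin valves. LAPTM5, a lysosomal membrane protein of blood cells, was called for pergolide (0.46 ± 0.11) and dexfenfluramine (0.50 ± 0.11) on the log2 scale. The pan-leukocyte sum, led by CSF2RB, was 141, 121, 126, 129 and 127 CPM in non-treated valves and 139, 156, 154, 155 and 159.8 CPM after serotonin. After pergolide it was 139, 133, 129, 122 and 142 CPM and after dexfenfluramine 139, 140.5, 143, 138 and 130.0 CPM. Non-treated replicate 1 lay above serotonin replicate 1, and the other serotonin valves were above all other valves. That order rests on CSF2RB, which gave 103 to 115 CPM of the serotonin sums and 78.6 to 102 CPM of the non-treated sums. It gave 66.7 to 80.7 CPM of the pergolide sums and 70.7 to 86.3 CPM of the dexfenfluramine sums. The other markers did not follow that order, and no marker of this list was called for serotonin. Each drug gave 3 called genes that were higher, CD53, LAPTM5 and ARHGDIB, and 1 that was lower, CSF2RB (ARHGDIB 0.57 ± 0.20 for pergolide and 0.83 ± 0.20 for dexfenfluramine). The pergolide call of ARHGDIB was lost without any 1 of non-treated replicates 1, 4 and 5 and pergolide replicates 1, 4 and 5 (log2 fold changes from 0.46 to 0.59). XBP1, which drives the secretory programme of plasma cells but is used in many cells, rose by 0.94 for pergolide and 1.02 for dexfenfluramine. GATA2, a factor of mast cells that endothelium also uses, was not called for any treatment, its smallest p being for dexfenfluramine (0.38 ± 0.22).

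Markers of the valve's other cells were matched in the same way, with symbols from the list of DEGs alone. Differences between groups were thus to be found among them, and their calls and sums are a description. Of 23 valve interstitial cell markers 13 had a symbol, and 7 were called higher for each drug and none lower, with the smallest p for COL3A1 for pergolide (1.00 ± 0.17) and FAP for serotonin (0.48 ± 0.16, not called). Their sum, led by VIM, was 10538, 10149, 12041, 7241 and 9148 CPM in non-treated valves and 11046, 8731, 12392, 10403 and 11420.4 CPM after serotonin. After pergolide it was 11016, 12183, 11054, 14070.4 and 14903 CPM and after dexfenfluramine 13044, 13661, 18585, 11887 and 12879.5 CPM, highest in dexfenfluramine replicate 3. Heart muscle RNA was present in every sample. Of 27 cardiomyocyte markers 15 had a symbol, and these, led by TTN, summed to 144499, 108371, 50663, 153578 and 99174 CPM in the non-treated valves and to 54349, 105684, 61780.3, 98842 and 64856 CPM after serotonin. After pergolide the sums were 83621, 93944, 93884, 53694 and 48842 CPM and after dexfenfluramine 72248, 53383, 12842, 61423 and 72585 CPM. Non-treated replicate 3 and dexfenfluramine replicate 3 had the lowest cardiomyocyte sums of their groups. Of these markers, 5 were called lower for dexfenfluramine, and pergolide gave 1 lower (TNNT2, -2.27 ± 0.45) and 1 higher (TBX20, 0.42 ± 0.14), the latter lost without any 1 of non-treated replicates 1, 4 and 5 and pergolide replicates 2 and 4 (log2 fold changes from 0.32 to 0.41).

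Adipocyte markers (8 of 19 genes, led by ACACA) summed to 135, 116, 106, 182 and 102 CPM in non-treated valves and 258, 111, 184, 185 and 183 CPM after serotonin. The sums were 369, 383, 282, 203 and 255 CPM after pergolide, each above the non-treated valves, and 193, 225, 89.1, 143 and 236 CPM after dexfenfluramine, with 7 genes called higher for pergolide and 1 (ACACA) for dexfenfluramine. The sum of the endothelial markers (5 of 30 genes, led by PECAM1) was 431, 513, 478, 312 and 477 CPM in non-treated valves and 417, 519, 513, 456 and 449 CPM after serotonin. After pergolide it was 361, 309, 273, 329 and 307 CPM and after dexfenfluramine 344, 371, 424, 362 and 379 CPM. For pergolide 3 of these were called lower, among them PECAM1 (-0.73 ± 0.21) and PROX1 (-0.70 ± 0.16), and 1 higher, and PROX1 was called lower for dexfenfluramine (-0.67 ± 0.16). For smooth muscle and pericytes (5 of 15 genes, led by DES) the sum was 597, 438, 312, 784 and 491 CPM in non-treated valves and 468, 566, 349.8, 448 and 391 CPM after serotonin. After pergolide it was 513, 489, 530.4, 429 and 465 CPM and after dexfenfluramine 569.5, 395, 156, 379 and 408 CPM. For pergolide TAGLN (0.99 ± 0.36) and CSPG4 (0.39 ± 0.12) were called higher and MYOCD (-0.95 ± 0.31) lower. Each of these pergolide calls was lost without 1 valve or another, that of TAGLN without any 1 of non-treated replicates 1, 2, 3 and 4 and pergolide replicates 1, 3, 4 and 5 (log2 fold changes from 0.84 to 1.06), that of CSPG4 without any 1 of non-treated replicates 1 and 2 and pergolide replicates 3 and 5 (log2 fold changes from 0.32 to 0.37) and that of MYOCD without any 1 of non-treated replicates 1 and 4 and pergolide replicates 1, 4 and 5 (log2 fold changes from -0.93 to -0.74). For dexfenfluramine TAGLN was called higher (1.36 ± 0.35) and MYH11 (-1.41 ± 0.36) and MYOCD (-1.09 ± 0.31) lower. With svaseq variables in edgeR the calls of LAPTM5, ARHGDIB and PROX1 for both drugs, of PECAM1 and CSPG4 for pergolide, of TAGLN for both and of MYH11 and MYOCD for dexfenfluramine were lost. In that fit 4 of the 7 interstitial calls for pergolide and 2 of the 7 for dexfenfluramine were kept, 2 of the 7 adipocyte calls for pergolide and 1 of the 5 cardiomyocyte calls for dexfenfluramine. The part of these cell types in the results on single genes was not tested.

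**Figure D2:**
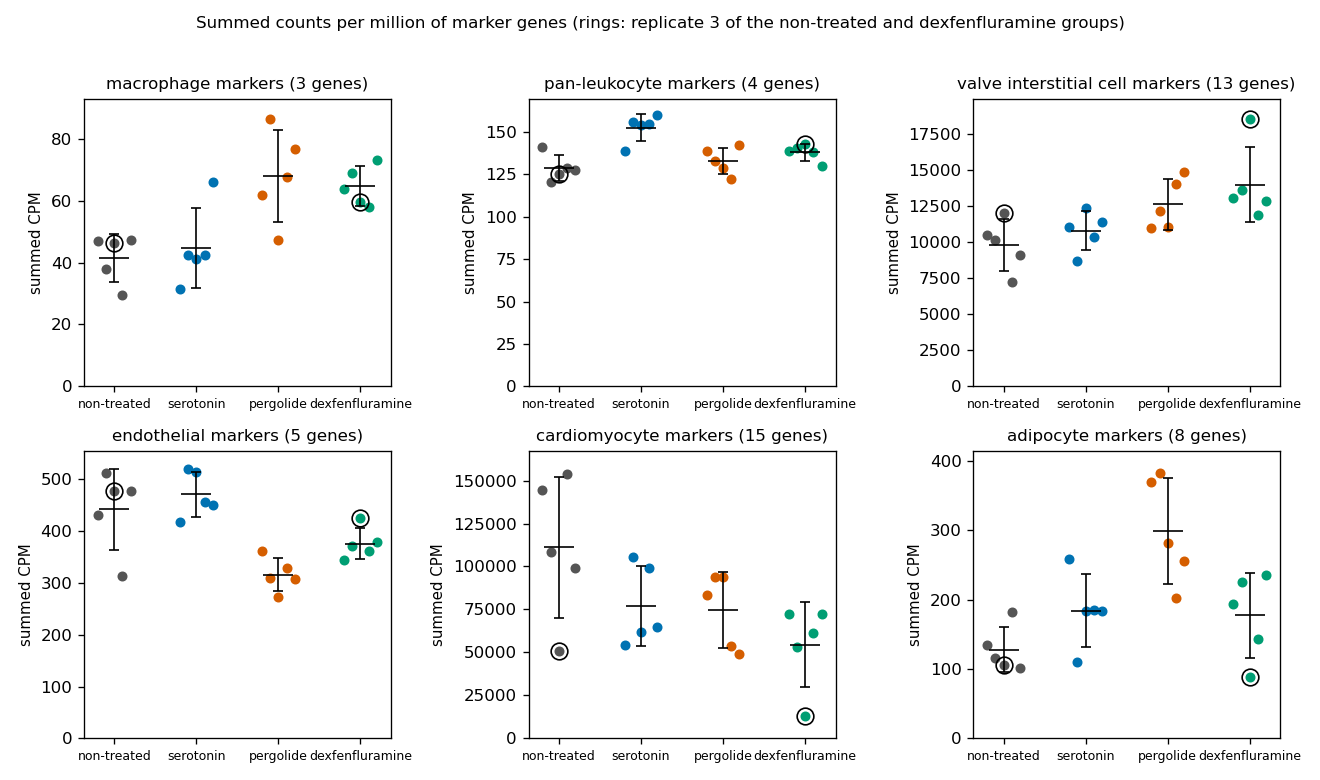
Summed CPM of the marker genes of 6 cell types (vertical axes, from 0) in every valve by group, with mean and SD (n = 5) as bars; rings mark replicate 3 of the non-treated and dexfenfluramine groups. Cardiomyocyte sums are lowest in the ringed valves of both groups, and the mean adipocyte sum is highest after pergolide.

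Among complement components, C1QA (ENSOCUG00000029367), a chain of the C1q recognition molecule, stood at 13.7, 5.42, 5.62, 3.82 and 7.82 CPM in non-treated valves 1 to 5 and at 7.22, 7.60, 9.35, 13.9 and 29.2 CPM after serotonin. It stood at 17.6, 30.6, 7.59, 21.5 and 19 CPM after pergolide and at 9.90, 12.2, 11.5, 12.5 and 15.1 CPM after dexfenfluramine. The groups overlapped in every comparison, and pergolide replicate 3 was low among the pergolide valves. On the log2 scale C1QA differed from non-treated valves by 0.93 ± 0.40 (SE, n = 5 per group) for serotonin, 1.45 ± 0.39 for pergolide, which was called, and 0.79 ± 0.39 for dexfenfluramine. Serotonin replicate 5 was high among the serotonin valves, and over all alternatives the serotonin value ran from 0.43 to 1.22. Pergolide against serotonin (0.52 ± 0.36, not called) was called without serotonin replicate 5 (log2 fold change 1.02). C1QB, another chain of C1q, gave 0.59 ± 0.32 for pergolide and 0.86 ± 0.32 for dexfenfluramine, neither called, from 8.93 ± 4.93 CPM (SD) in non-treated valves. For dexfenfluramine C1QB was called without non-treated replicate 5 (log2 fold change 1.16), in limma-voom, in DESeq2 and with 1 RUVr factor. C1R, the protease that C1q activates first, averaged 145 ± 27 CPM in non-treated and 145 ± 34.5 CPM in serotonin valves against 229.6 ± 47.5 CPM after pergolide and 227 ± 24.4 CPM after dexfenfluramine. Its non-treated valves did not overlap with either drug group, and it was called for both drugs (0.67 ± 0.16 and 0.65 ± 0.16). C1S, the next protease, was not called (0.15 ± 0.23 and 0.52 ± 0.23), but was for dexfenfluramine without any 1 of dexfenfluramine replicate 4 and non-treated replicate 3 (log2 fold change 0.64) and with 1 RUVr factor.

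Each membrane regulator of complement was called lower for 1 drug. CD59 (ENSOCUG00000014601), which blocks the membrane attack complex, had 49.4, 49, 52.1, 31.5 and 48.3 CPM in non-treated valves and 39.4, 38.3, 54.9, 36.5 and 36.2 CPM after serotonin. After pergolide it had 29.1, 19.3, 31.6, 40.3 and 34.2 CPM and after dexfenfluramine 58.1, 37.6, 47, 41.2 and 33.8 CPM. The non-treated values lay close together except for replicate 4, which was within the pergolide range. CD59 fell for pergolide (-0.58 ± 0.18), while serotonin (-0.17 ± 0.18) and dexfenfluramine (-0.09 ± 0.18) gave no call. This call was lost without any 1 of non-treated replicate 3 and pergolide replicates 1 and 2 (log2 fold changes from -0.56 to -0.46). CD55, which disassembles the C3 convertases, was called for dexfenfluramine (-0.69 ± 0.19) and not for pergolide (-0.51 ± 0.19). Pergolide was called without any 1 of non-treated replicates 1 and 5 and pergolide replicate 5 (log2 fold changes from -0.61 to -0.59), in DESeq2 and with svaseq variables or 1 RUVr factor in edgeR. Its dexfenfluramine range, 13.9 to 17 CPM, lay below the non-treated range of 17.7 to 33.8 CPM. In all, 2 of the 6 complement genes were called higher and 1 lower for pergolide, and 1 higher and 1 lower for dexfenfluramine, beside 12.1% higher and 12.7% lower of all tested genes for pergolide and 13.5% and 15.4% for dexfenfluramine. Their median was 0.37 and 0.59 for these drugs and -0.10 for serotonin.

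The complement list held 36 genes, of which 10 had a symbol here. Outside the genes above, 3 were tested and C3AR1, a receptor for the fragment C3a, was not. C4A, a component cleaved by C1s, rose for pergolide (0.95 ± 0.22) and dexfenfluramine (1.28 ± 0.22). It has near-identical copies in some mammals, so that its counts are uncertain. MASP1, a protease of the lectin pathway, rose for dexfenfluramine (0.66 ± 0.23) and C8A, part of the membrane attack complex, fell (-0.85 ± 0.30). MASP1 lost this call without any 1 of dexfenfluramine replicate 3 and non-treated replicates 1, 4 and 5 (log2 fold changes from 0.48 to 0.61) and C8A without any 1 of dexfenfluramine replicates 1, 2, 3 and 5 and non-treated replicates 2, 3 and 4 (log2 fold changes from -0.91 to -0.65). It was also lost for MASP1 with svaseq variables in edgeR, and for C8A in DESeq2 and without both outlying valves. Serotonin gave no call in this list, with the smallest p for MASP1 outside the 49 genes (0.33 ± 0.23). The list summed to 552 ± 99 CPM in non-treated, 558 ± 85.4 in serotonin, 732 ± 122 in pergolide and 846 ± 131 in dexfenfluramine valves.

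The C1q and TNF related proteins are secreted factors related to adiponectin, and 3 of the 4 were called higher for both drugs. C1QTNF2 (ENSOCUG00000011735) had 1.08, 3.52, 2.81, 2.65 and 1.84 CPM in non-treated valves and 6.06, 6.65, 2.92, 3.22 and 6.46 CPM after serotonin. After pergolide it had 4.79, 6.49, 3.79, 3.87 and 5.87 CPM and after dexfenfluramine 5.16, 4.48, 6.30, 4.29 and 4.33 CPM. All valves of both drugs were above the non-treated valves, while serotonin replicates 3 and 4 were within their range. The log2 fold changes were 1.05 ± 0.29 for serotonin, not called, 1.02 ± 0.28 for pergolide and 1.00 ± 0.28 for dexfenfluramine, both called. Serotonin was called without serotonin replicate 3 (log2 fold change 1.19) and with 1 RUVr factor (1.06), and both drug calls were lost with svaseq variables in edgeR (0.98 and 0.93).

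C1QTNF3 (ENSOCUG00000026419) stood at 47.6, 65.8, 66.5, 44.7 and 65.3 CPM in non-treated valves and 93.6, 101, 63.4, 95.2 and 109 CPM after serotonin. Its values were 96.9, 104, 92.5, 102 and 136 CPM after pergolide and 62.6, 88.8, 121, 72.7 and 81.6 CPM after dexfenfluramine. Only the pergolide valves lay wholly above the non-treated ones among the 3 treatments. The changes were 0.66 ± 0.17 for serotonin, 0.87 ± 0.17 for pergolide and 0.55 ± 0.17 for dexfenfluramine, with the drugs called. For dexfenfluramine the call was lost without any 1 of non-treated replicates 1 and 4 and dexfenfluramine replicate 3 (log2 fold changes from 0.39 to 0.49), without both outlying valves (0.44) and with svaseq variables in edgeR (0.42). For serotonin a call appeared without any 1 of non-treated replicate 3 and serotonin replicate 3 (log2 fold changes from 0.72 to 0.77), in DESeq2 (0.65), with 1 RUVr factor (0.69) and without both outlying valves (0.72). C1QTNF7 changed less, by 0.22 ± 0.07 for pergolide and 0.25 ± 0.07 for dexfenfluramine, and its drug-treated valves did not overlap with the non-treated valves. Its pergolide call was lost without any 1 of non-treated replicates 1, 2 and 5 and pergolide replicates 1, 4 and 5 (log2 fold changes from 0.19 to 0.22), and both calls with svaseq variables in edgeR.

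C1QTNF9 (ENSOCUG00000011793) had lower means after the drugs, with 5.05, 4.34, 1.23, 4.71 and 2.30 CPM in non-treated valves and 2.56, 5.06, 2.05, 4.29 and 1.40 CPM after serotonin. It had 3.26, 1.88, 2.11, 2.64 and 1.25 CPM after pergolide and 2.80, 1.72, 0.540, 1.68 and 0.962 CPM after dexfenfluramine. Non-treated replicate 3 and dexfenfluramine replicate 3 had the lowest values of their groups, as they had the lowest cardiomyocyte sums, whose part in the result was not tested. No treatment was called (-0.59 ± 0.42 for pergolide and -1.14 ± 0.44 for dexfenfluramine). Dexfenfluramine was called without any 1 of non-treated replicates 3 and 5 and dexfenfluramine replicate 1 (log2 fold changes from -1.44 to -1.27), without both outlying valves (-1.20) and in DESeq2 (-1.19), and also with 1 RUVr factor, the replicate block or the most abundant gene left out.

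Of the chemokine genes, CCL9 (ENSOCUG00000029281), listed under the name of a mouse chemokine and with close relatives among which reads may be divided, had 6.49, 5.15, 8.78, 12.4 and 9.20 CPM in non-treated valves and 10, 7.60, 8.77, 9.92 and 10.1 CPM after serotonin. It had 3.26, 2.56, 5.27, 4.05 and 4.45 CPM after pergolide and 4.73, 3.45, 3.42, 6.34 and 2.89 CPM after dexfenfluramine. The serotonin valves lay above every drug-treated valve, and the lowest non-treated valve was within the range of both drug groups. CCL9 fell for pergolide (-1.11 ± 0.25) and dexfenfluramine (-1.02 ± 0.24), and serotonin gave 0.14 ± 0.23, not called.

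CXCL10 (ENSOCUG00000016280), an interferon-induced chemokine that attracts T cells, was at 2.89, 1.90, 1.05, 10 and 4.14 CPM in non-treated valves and 1.63, 2.85, 1.75, 2.15 and 2.81 CPM after serotonin. It was at 6.90, 5.47, 2.74, 3.34 and 1.07 CPM after pergolide and 3.44, 2.07, 0, 0.932 and 1.12 CPM after dexfenfluramine, dexfenfluramine replicate 3 having no read. Between 40 and 106 reads in total per group stand behind these values, and the groups overlapped. None of the changes was called (-0.79 ± 0.63 for serotonin, 0.02 ± 0.55 for pergolide and -1.38 ± 0.63 for dexfenfluramine). Dexfenfluramine was called without any 1 of non-treated replicate 3 and dexfenfluramine replicate 1 (log2 fold changes from -1.87 to -1.67) and with 1 RUVr factor (-1.30). Non-treated replicate 4 was the highest of all valves. Over all alternatives the change ran from -1.87 to -0.57 for dexfenfluramine and from -1.09 to -0.13 for serotonin.

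CXCR4 (ENSOCUG00000001923), the receptor for CXCL12 found on leukocytes, progenitors and endothelium, had 17.3, 19, 12.6, 5.59 and 11 CPM in non-treated valves and 5.36, 6.65, 9.06, 9.12 and 8.15 CPM after serotonin. It had 10.5, 15.5, 17.1, 24.4 and 12.8 CPM after pergolide and 29.5, 18.8, 39.8, 26.7 and 17.8 CPM after dexfenfluramine. The highest value was in dexfenfluramine replicate 3 and the lowest in serotonin replicate 1. CXCR4 rose for dexfenfluramine (1.02 ± 0.28), and serotonin (-0.77 ± 0.31) and pergolide (0.30 ± 0.28) were not called. With svaseq variables in edgeR the dexfenfluramine call was lost (1.03). Since these 3 are the genes of the chemokine list with a symbol (3 of 60), no chemokine gene outside them was analysed here.

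**Figure D3:**
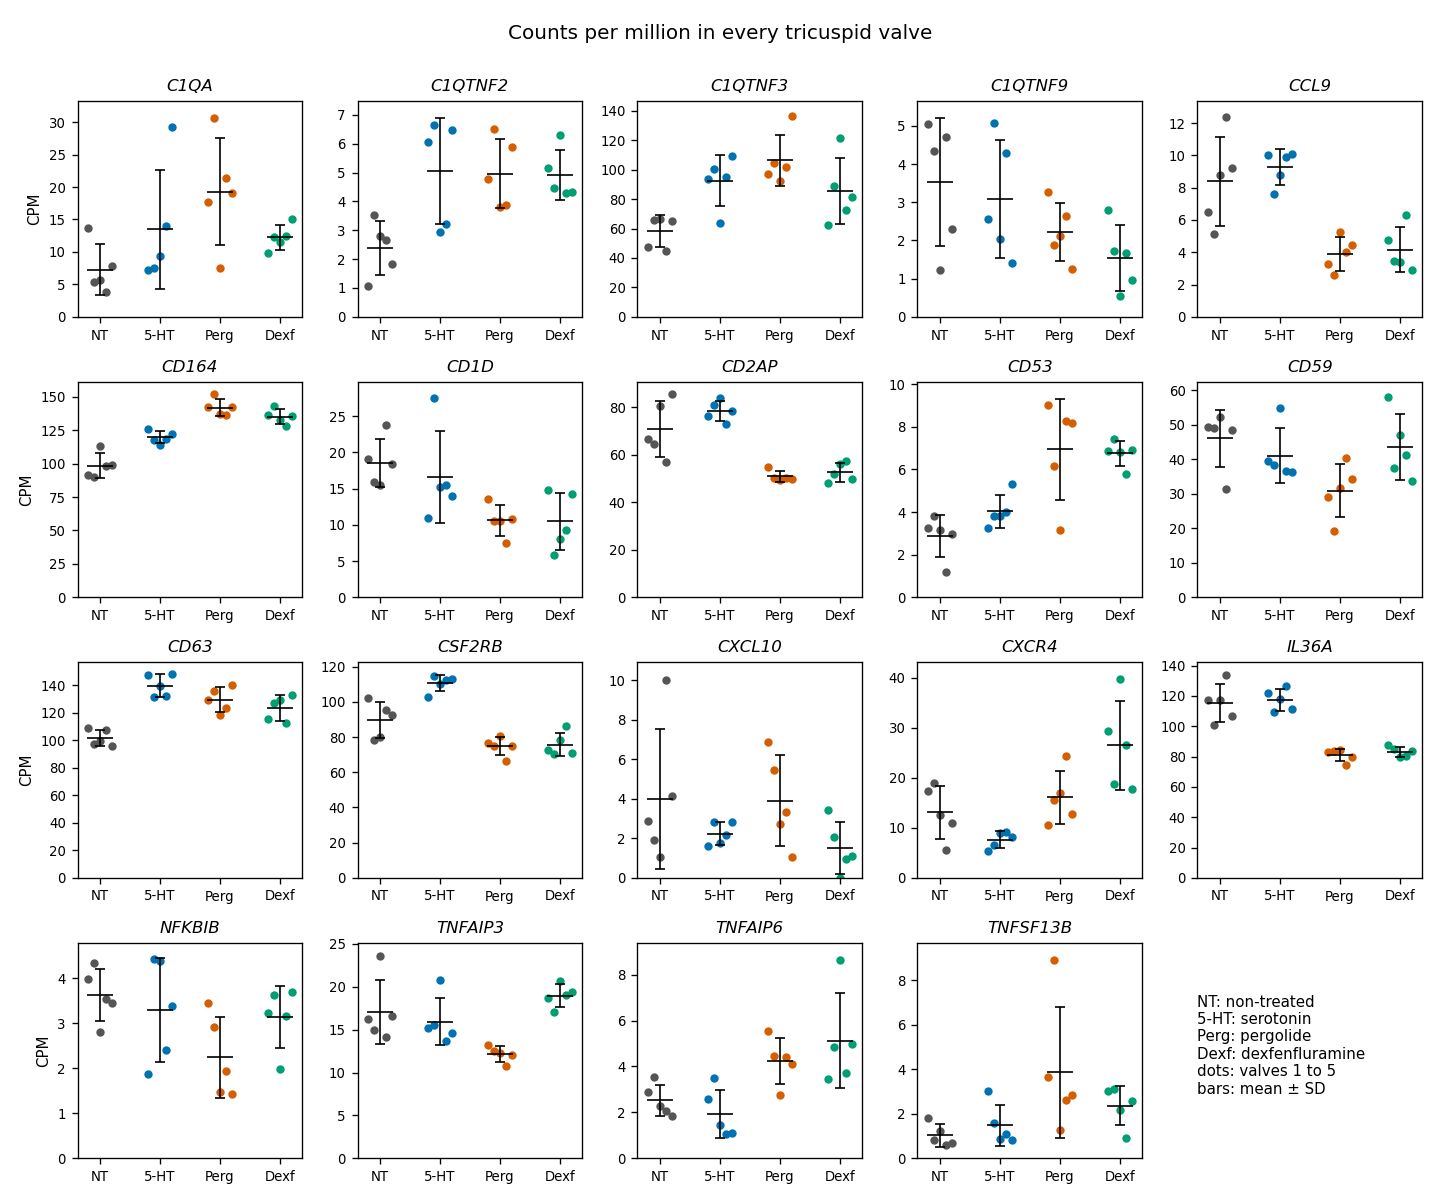
CPM (vertical axes, from 0) in each of the 20 valves for the 19 genes given valve by valve, with mean and SD (n = 5) as bars; the groups are non-treated, serotonin, pergolide and dexfenfluramine. IL36A, CSF2RB and CD2AP lie lower in all drug-treated valves than in any serotonin valve, while CXCL10 overlaps between all groups.

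Cytokine genes were few. CSF1, the growth factor of macrophages, gave 0.49 ± 0.18 for pergolide and was not called for any treatment, but was for pergolide without pergolide replicate 1 (log2 fold change 0.57), with 1 RUVr factor and with upper-quartile factors. CSF2RB (ENSOCUG00000027344), the receptor chain shared by IL-3, IL-5 and GM-CSF, had 102, 78.6, 79.9, 95.6 and 92.3 CPM in non-treated valves and 103, 115, 110.2, 113 and 113 CPM after serotonin. After pergolide it had 76.6, 74.8, 80.7, 66.7 and 74.7 CPM and after dexfenfluramine 72.5, 70.7, 78.3, 86.3 and 71 CPM. Each serotonin valve was above each non-treated valve, and both drug groups overlapped with the non-treated valves. CSF2RB was called lower for pergolide (-0.26 ± 0.08) and dexfenfluramine (-0.24 ± 0.08), and serotonin gave 0.31 ± 0.08, not called. The pergolide call was lost without any 1 of non-treated replicate 1 and pergolide replicate 4 (log2 fold change -0.22) and the dexfenfluramine call without any 1 of non-treated replicates 1, 4 and 5 and dexfenfluramine replicates 1, 2 and 5 (log2 fold changes from -0.24 to -0.20). For serotonin a call appeared without non-treated replicate 1 (log2 fold change 0.35). Upper-quartile factors also ended the dexfenfluramine call (-0.19), and svaseq variables in edgeR ended both calls (-0.14 and -0.13) and brought one for serotonin (0.42), as did DESeq2 and 1 RUVr factor. Both drug calls were also lost without the filter (-0.25 and -0.23) and with only the 2 groups compared (-0.26 and -0.24), and the dexfenfluramine call with the replicate block (-0.24).

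IL36A (ENSOCUG00000014998), named as a cytokine of the IL-1 family, had 117, 101, 117, 134 and 107 CPM in non-treated valves and 122, 109.5, 118, 126 and 111 CPM after serotonin. It had 83.1, 83.4, 84.1, 74.7 and 80.1 CPM after pergolide and 87.8, 84.8, 79.6, 80.5 and 83.5 CPM after dexfenfluramine. All drug-treated valves were below all other valves, and the valves within a drug group differed little. IL36A fell for pergolide (-0.51 ± 0.07) and dexfenfluramine (-0.47 ± 0.07), with 0.03 ± 0.07 for serotonin. Its symbol and that of CSF2RB rest on the supplementary list alone, and whether the counted exons hold reads of an overlapping gene was not tested.

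Interleukin receptors gave positive log2 fold changes for both drugs. IL13RA1, a chain of the receptors for IL-4 and IL-13, averaged 149 ± 25.5 CPM (SD, n = 5) in non-treated, 188 ± 20.7 in serotonin, 228 ± 29.5 in pergolide and 209 ± 12.8 in dexfenfluramine valves, was called for both drugs (0.62 ± 0.11 and 0.49 ± 0.11) and did not overlap between drug-treated and non-treated valves. IL6R, the binding chain for IL-6, was called for dexfenfluramine (0.86 ± 0.24), as was IL1R1, the signalling receptor of IL-1 (0.42 ± 0.16). For pergolide these gave 0.42 ± 0.25 and 0.41 ± 0.16, not called. The IL1R1 call was lost without any 1 of dexfenfluramine replicates 1, 2, 4 and 5 and non-treated replicates 1, 2, 4 and 5 (log2 fold changes from 0.31 to 0.46), and for pergolide IL1R1 was called without any 1 of non-treated replicate 3 and pergolide replicate 1 (log2 fold changes from 0.47 to 0.52). IL11RA, the receptor of IL-11, IL6ST, the signalling chain that IL6R and IL11RA share, and IL17RD were not called for any treatment (0.56 ± 0.21, 0.28 ± 0.12 and 0.17 ± 0.22 for dexfenfluramine). IL17RD gave 0.51 ± 0.22 for pergolide, whose valves did not overlap with the non-treated valves. For dexfenfluramine IL11RA was called without any 1 of dexfenfluramine replicate 5 and non-treated replicate 5 (log2 fold changes from 0.62 to 0.68) and in DESeq2, and IL6ST without non-treated replicate 3 (log2 fold change 0.42). IL6ST was called for pergolide without non-treated replicate 3 (log2 fold change 0.30), and IL13RA1 for serotonin without non-treated replicate 3 (log2 fold change 0.44). Without both outlying valves IL6ST was called for both drugs, IL1R1 for pergolide and IL13RA1 for serotonin. With 1 RUVr factor IL6ST and IL11RA were called for dexfenfluramine and IL13RA1 for serotonin. The dexfenfluramine calls of IL13RA1, IL6R and IL1R1 were lost with svaseq variables in edgeR, and that of IL1R1 also in limma-voom and DESeq2. For the 7 tested interleukin genes the median was 0.06 for serotonin, 0.41 for pergolide and 0.42 for dexfenfluramine.

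STAT factors, which carry cytokine signals to the nucleus, had calls in both directions. STAT3, the factor downstream of IL6ST, fell for both drugs by similar amounts (-0.27 ± 0.08 for pergolide and -0.27 ± 0.08 for dexfenfluramine), from 237 ± 11.3 CPM in non-treated valves to 196 ± 9.99 and 197 ± 9.78 CPM (SD, n = 5), without overlap. STAT4, a factor of IL-12 signalling, rose for both (0.86 ± 0.22 and 0.86 ± 0.22), from 3.71 ± 0.769 CPM to 6.80 ± 1.41 and 6.76 ± 1.17 CPM, also without overlap. STAT5B rose for dexfenfluramine (0.38 ± 0.12) and was not called for pergolide (0.27 ± 0.12). This call was lost without any 1 of dexfenfluramine replicates 1 and 2 and non-treated replicates 2 and 3 (log2 fold changes from 0.32 to 0.35). The calls of STAT3 and STAT4 for both drugs and that of STAT5B were all lost with svaseq variables in edgeR. Serotonin gave -0.23 ± 0.08, -0.29 ± 0.25 and -0.14 ± 0.13 for STAT3, STAT4 and STAT5B, none called, although STAT3 was in DESeq2.

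In the list of the IL-6 family and JAK-STAT signalling, 15 of 38 genes had a symbol, 9 of them outside the 49 genes. For pergolide 3 of the 9 were called lower and none higher, namely PIAS1, an inhibitor of STAT factors (-0.39 ± 0.10), JAK1, the kinase bound to IL6ST and interferon receptors (-0.29 ± 0.07), and CISH, a feedback inhibitor of STAT5 (-1.54 ± 0.51). Dexfenfluramine gave 3 lower, with PTPN11, the phosphatase SHP2 (-0.31 ± 0.07), in place of CISH (-1.04 ± 0.48, not called), and 2 higher, the receptors CNTFR (1.38 ± 0.39) and OSMR (0.35 ± 0.12). The CISH call was lost without any 1 of non-treated replicate 4 and pergolide replicates 2 and 4 (log2 fold changes from -1.46 to -1.11), that of PIAS1 for dexfenfluramine without any 1 of dexfenfluramine replicates 3 and 5 and non-treated replicates 2 and 3 (log2 fold changes from -0.29 to -0.19) and that of OSMR without any 1 of dexfenfluramine replicates 3 and 5 and non-treated replicates 1, 2, 4 and 5 (log2 fold changes from 0.26 to 0.36). Adding svaseq variables to edgeR ended the call of CISH and the dexfenfluramine calls of PIAS1, PTPN11, CNTFR and OSMR. The smallest p for serotonin outside the 49 genes was that of JAK1 (0.26 ± 0.07), not called. It was called without non-treated replicate 3 (log2 fold change 0.32), without both outlying valves, in DESeq2 and with 1 RUVr factor. Of the list of the IL-1 and IL-17 families, 6 of 36 had a symbol, and IL33, with a corrected identifier, was the only gene outside the 49, with 0.66 ± 0.25 for pergolide, 0.66 ± 0.25 for dexfenfluramine and 0.43 ± 0.26 for serotonin, not called. It was called for pergolide without any 1 of non-treated replicate 5 and pergolide replicate 3 (log2 fold changes from 0.75 to 0.84) and for dexfenfluramine without any 1 of dexfenfluramine replicates 1 and 5 and non-treated replicate 5 (log2 fold changes from 0.71 to 0.85).

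Of 4 genes of interferon and Toll-like receptor signalling, 1 was called. TLR1, a receptor for bacterial lipopeptides, rose for pergolide (1.09 ± 0.36), with 1.13 ± 0.713 CPM (SD, n = 5) and 25 reads in total in non-treated valves against 2.60 ± 0.879 CPM and 72 reads. The call was lost without any 1 of non-treated replicates 1, 2, 4 and 5 and pergolide replicates 2, 4 and 5 (log2 fold changes from 0.93 to 1.12) and with svaseq variables in edgeR. TLR3, a receptor for double-stranded RNA, and the interferon factors IRF2 and IRF9 were not called against non-treated valves. For dexfenfluramine they gave 0.38 ± 0.15, -0.22 ± 0.10 and 0.37 ± 0.17, and TLR1 gave 0.78 ± 0.37. Calls appeared for TLR1 without non-treated replicate 3 (log2 fold change 1.29) and for IRF9 without non-treated replicate 1 (log2 fold change 0.51), both for dexfenfluramine, and for IRF2 with pergolide without pergolide replicate 1 (log2 fold change -0.32). For dexfenfluramine TLR1 was also called with 1 RUVr factor and without both outlying valves, and TLR3 with 1 RUVr factor, the replicate block or upper-quartile factors. The median of the 4 genes was 0.18 for serotonin, 0.17 for pergolide and 0.38 for dexfenfluramine.

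The interferon-stimulated list had a symbol for 4 of 42 genes. Outside the 49 genes, 3 of 3 were called lower for pergolide, GBP1, an interferon-induced GTPase (-1.42 ± 0.39), TRIM25, a ligase that activates an RNA sensor (-0.50 ± 0.14), and IFIT3, which restrains viral RNA translation (-0.73 ± 0.27). For dexfenfluramine IFIT3 (-0.85 ± 0.27) and GBP1 (-1.04 ± 0.38) were called lower and TRIM25 was not (-0.25 ± 0.14). The IFIT3 calls were lost without any 1 of non-treated replicates 1 and 5 and pergolide replicates 1, 2, 3, 4 and 5 (log2 fold changes from -0.79 to -0.54) and without any 1 of dexfenfluramine replicates 2 and 3 and non-treated replicate 5 (log2 fold changes from -0.77 to -0.65), and those of GBP1 without non-treated replicate 5 (log2 fold change -1.03) and without any 1 of dexfenfluramine replicates 2, 3, 4 and 5 and non-treated replicates 1 and 5 (log2 fold changes from -1.10 to -0.65). These calls of IFIT3 and GBP1 were all lost with svaseq variables in edgeR, and that of TRIM25 was kept. The smallest p for serotonin was that of TRIM25 (-0.41 ± 0.14), not called. IFIT3 belongs to the genes with a corrected identifier, with 22, 13, 16.5, 14.7 and 28.3 CPM in non-treated valves and 12.1, 12.8, 9.48, 12.1 and 10.3 CPM after pergolide. These genes too were listed because of the same contrasts, so that a common direction among 3 of them is a description. The list, led by IFIT3, summed to 43 ± 10.7 CPM in non-treated, 34.8 ± 8.68 in serotonin, 27.5 ± 3.30 in pergolide and 26.9 ± 4.50 in dexfenfluramine valves (SD, n = 5).

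Of the signalling list, 11 of 42 genes had a symbol, and of the 7 outside the 49 genes 2 were called higher and 3 lower for pergolide, and 3 higher and 3 lower for dexfenfluramine. IFNGR1, the receptor chain that binds interferon gamma, fell for both (-0.38 ± 0.09 and -0.39 ± 0.09), as did TBK1, a kinase that activates IRF3 (-0.30 ± 0.08 and -0.33 ± 0.08), and JAK1. IRAK3, an inhibitor of Toll-like receptor signalling, rose for both (0.63 ± 0.20 and 0.76 ± 0.20), and so did TRAF6, a ligase that passes the signal on (0.49 ± 0.16 and 0.52 ± 0.16). For serotonin the smallest p was again that of JAK1. The pergolide calls were lost for IRAK3 without any 1 of non-treated replicates 1, 2, 4 and 5 and pergolide replicate 4 (log2 fold changes from 0.52 to 0.60) and for TRAF6 without any 1 of non-treated replicates 1, 3 and 4 and pergolide replicates 1, 2 and 4 (log2 fold changes from 0.38 to 0.48), and the dexfenfluramine call of TRAF6 without non-treated replicate 4 (log2 fold change 0.44). For both drugs svaseq variables in edgeR ended the calls of IFNGR1, TBK1, IRAK3 and TRAF6. The summed level of the list, led by JAK1, was 524 ± 37.2 CPM in non-treated, 600.3 ± 16.8 in serotonin, 472 ± 22.6 in pergolide and 484 ± 19.1 in dexfenfluramine valves (SD, n = 5).

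Among genes of NF-κB and of the response to TNF, TNFAIP3 (ENSOCUG00000002310), the enzyme A20 that ends NF-κB signalling, had 16.2, 14.9, 23.5, 14.1 and 16.6 CPM in non-treated valves and 15.1, 15.5, 20.7, 13.7 and 14.6 CPM after serotonin. It had 13.2, 12.5, 12.2, 10.7 and 12.1 CPM after pergolide and 18.7, 17.1, 20.7, 19 and 19.4 CPM after dexfenfluramine. The pergolide valves lay below all others, and replicate 3 of the non-treated and of the serotonin group stood above the rest of its group. TNFAIP3 fell for pergolide (-0.51 ± 0.14), with 0.14 ± 0.13 for dexfenfluramine and -0.12 ± 0.14 for serotonin, and this call was lost with svaseq variables in edgeR (-0.53).

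TNFAIP6 (ENSOCUG00000013688), a secreted hyaluronan-binding protein induced by TNF, had 2.89, 3.52, 2.28, 2.06 and 1.84 CPM in non-treated valves and 2.56, 3.48, 1.46, 1.07 and 1.12 CPM after serotonin. It had 5.56, 4.44, 2.74, 4.40 and 4.09 CPM after pergolide and 3.44, 4.83, 8.64, 3.73 and 4.97 CPM after dexfenfluramine. Dexfenfluramine replicate 3 was the highest of all valves and serotonin replicate 4 the lowest. TNFAIP6 rose for dexfenfluramine (1.04 ± 0.31), was not called for pergolide (0.77 ± 0.32) or serotonin (-0.36 ± 0.37), and lost its dexfenfluramine call without dexfenfluramine replicate 3 (log2 fold change 0.77) and without both outlying valves (0.73). With svaseq variables in edgeR it was called for pergolide (1.38), as with only the 2 groups compared (0.77).

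NFKBIB (ENSOCUG00000024218), an inhibitor that holds NF-κB in the cytoplasm, stood at 3.97, 4.34, 2.81, 3.53 and 3.45 CPM in non-treated valves and 1.86, 4.43, 4.38, 2.41 and 3.37 CPM after serotonin. It stood at 3.45, 2.90, 1.48, 1.93 and 1.42 CPM after pergolide and 3.23, 3.62, 1.98, 3.17 and 3.69 CPM after dexfenfluramine. All groups overlapped and no treatment was called (-0.66 ± 0.29 for pergolide), although pergolide was called without pergolide replicate 1 (log2 fold change -0.86). NFKB1, the precursor of the p50 subunit, rose for dexfenfluramine (0.29 ± 0.09) and gave 0.13 ± 0.09 for pergolide. The NFKB1 call was lost without any 1 of dexfenfluramine replicates 1 and 5 and non-treated replicates 4 and 5 (log2 fold changes from 0.22 to 0.27), without both outlying valves and with svaseq variables in edgeR. The NF-κB list had a symbol for 9 of 36 genes, and the 6 outside the 49 genes split into 4 called higher and 2 lower for pergolide and 4 higher and 1 lower for dexfenfluramine. Higher for both were CHUK, a kinase of the NF-κB inhibitor (0.39 ± 0.10 and 0.31 ± 0.10), BIRC2, a ubiquitin ligase at TNF receptors (0.34 ± 0.09 and 0.41 ± 0.09), BCL10, an adapter of antigen receptor signalling (0.42 ± 0.13 and 0.36 ± 0.13), and TRAF6. OTULIN, which removes linear ubiquitin chains, was lower for both (-0.52 ± 0.15 and -0.59 ± 0.15), and TNIP1, a partner of A20, was lower for pergolide (-0.39 ± 0.12). Calls were lost for CHUK with dexfenfluramine without any 1 of dexfenfluramine replicates 3 and 4 and non-treated replicates 2, 4 and 5 (log2 fold changes from 0.24 to 0.31), for TNIP1 without any 1 of non-treated replicate 1 and pergolide replicate 1 (log2 fold changes from -0.34 to -0.28), and for BCL10 without any 1 of non-treated replicates 1, 2 and 4 and pergolide replicates 1 and 4 (log2 fold changes from 0.36 to 0.39) and without any 1 of dexfenfluramine replicates 1, 2 and 3 and non-treated replicates 1, 2, 4 and 5 (log2 fold changes from 0.32 to 0.39). The svaseq variables in edgeR ended the calls of BIRC2 and BCL10 for both drugs, of CHUK for dexfenfluramine and of TNIP1. BCL10 had the smallest p for serotonin (0.30 ± 0.14), not called.

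TNFSF13B (ENSOCUG00000012271), the B cell survival factor BAFF, had 1.80, 0.813, 1.23, 0.588 and 0.690 CPM in non-treated valves and 3.03, 1.58, 0.877, 1.07 and 0.843 CPM after serotonin. It had 3.64, 8.88, 1.26, 2.64 and 2.85 CPM after pergolide and 3.01, 3.10, 2.16, 0.932 and 2.56 CPM after dexfenfluramine. Pergolide replicate 2 was far above the others of its group, and 20 reads in total were counted in the non-treated valves. TNFSF13B rose for pergolide (1.93 ± 0.50), and dexfenfluramine (1.20 ± 0.53) and serotonin (0.58 ± 0.60) were not called. The call was lost with svaseq variables in edgeR (2.19), and over all alternatives the pergolide value ran from 1.34 to 2.19. TNFRSF11B, the decoy receptor osteoprotegerin, gave 0.63 ± 0.25 for pergolide and 0.54 ± 0.25 for dexfenfluramine, not called. Pergolide was called without pergolide replicate 3 (log2 fold change 0.75), without both outlying valves and with svaseq variables or 1 RUVr factor in edgeR, and dexfenfluramine with 1 RUVr factor. Its highest value was in dexfenfluramine replicate 3, which stood far above the rest of its group. The dexfenfluramine valves had 66.1, 66.7, 139, 65.8 and 65.6 CPM, beside a mean of 55.2 CPM in non-treated valves. Of the TNF superfamily list, 3 of 45 genes had a symbol. The remaining one, the receptor TNFRSF19 with a corrected identifier, rose for both drugs (0.70 ± 0.16 and 0.67 ± 0.16) from 11.8 ± 2.28 CPM in non-treated valves (SD, n = 5) without overlap, with -0.19 ± 0.17 for serotonin. Both calls were lost with svaseq variables in edgeR.

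Surface antigens typical of leukocytes numbered 5, of which 4 were tested. CD53 (ENSOCUG00000014420), a tetraspanin of leukocytes, had 3.25, 3.79, 3.16, 1.18 and 2.99 CPM in non-treated valves and 3.26, 3.80, 3.80, 4.02 and 5.34 CPM after serotonin. It had 9.0, 6.15, 3.16, 8.27 and 8.18 CPM after pergolide and 6.88, 7.41, 6.84, 5.78 and 6.89 CPM after dexfenfluramine. All dexfenfluramine valves and all pergolide valves except replicate 3 were above the non-treated and serotonin valves. Pergolide replicate 3 was also the lowest of its group in C1QA and in the macrophage sum. That sum holds C1QA and C1QB, so that it is not a separate observation from C1QA. CD53 rose for pergolide (1.26 ± 0.26) and dexfenfluramine (1.22 ± 0.26), with 0.47 ± 0.29 for serotonin.

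CD1D (ENSOCUG00000006549), which presents lipid antigens to natural killer T cells, had 19.1, 16, 15.4, 23.8 and 18.4 CPM in non-treated valves and 10.9, 27.5, 15.2, 15.6 and 14 CPM after serotonin. It had 13.6, 10.6, 10.5, 7.56 and 10.9 CPM after pergolide and 14.8, 5.86, 8.10, 9.32 and 14.3 CPM after dexfenfluramine. Serotonin replicate 2 was the highest of all valves, and the drug-treated valves lay below all non-treated valves. CD1D fell for pergolide (-0.80 ± 0.25) and dexfenfluramine (-0.82 ± 0.25), with -0.16 ± 0.25 for serotonin. The pergolide call was lost without any 1 of non-treated replicate 4 and pergolide replicate 4 (log2 fold changes from -0.71 to -0.69) and the dexfenfluramine call without dexfenfluramine replicate 2 (log2 fold change -0.67), and both with svaseq variables in edgeR (-0.48 and -0.29). CD302, a lectin receptor of macrophages and dendritic cells, rose for both drugs (0.45 ± 0.10 and 0.38 ± 0.10) and gave 0.38 ± 0.10 for serotonin, not called. Serotonin was called without non-treated replicate 3 (log2 fold change 0.43), without both outlying valves and with 1 RUVr factor. Its dexfenfluramine call was lost with svaseq variables in edgeR. Its serotonin range of 41 to 50 CPM lay above the non-treated range of 30.3 to 40 CPM. CD38, an enzyme that consumes NAD, was not called (0.44 ± 0.20 for dexfenfluramine), but was for dexfenfluramine without non-treated replicate 4 (log2 fold change 0.60). The median of the 4 genes was 0.23 for serotonin, 0.36 for pergolide and 0.41 for dexfenfluramine.

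In the antigen presentation list 5 of 29 genes had a symbol. B2M, the light chain of class I molecules and of CD1D, rose for pergolide (0.52 ± 0.16) and dexfenfluramine (0.85 ± 0.16) and gave 0.39 ± 0.16 for serotonin, the smallest p of this list there. RLA-A1, a class I heavy chain whose counts are uncertain because of its near copies, fell for pergolide (-0.67 ± 0.21), with -0.02 ± 0.21 for dexfenfluramine. The pergolide calls were lost for B2M without any 1 of non-treated replicates 4 and 5 and pergolide replicate 4 (log2 fold changes from 0.39 to 0.48) and for RLA-A1 without any 1 of non-treated replicate 2 and pergolide replicates 1 and 3 (log2 fold changes from -0.62 to -0.56). PDIA3 and RFX5 were not called. Led by PDIA3, the list summed to 545 ± 57.3 CPM (SD, n = 5) in non-treated, 622 ± 61.1 in serotonin, 608 ± 75.2 in pergolide and 688 ± 79.8 in dexfenfluramine valves.

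The 8 surface antigens of many cell types, with medians of 0.16, 0.42 and 0.36 for serotonin, pergolide and dexfenfluramine, held the only genes called for serotonin, CD63 and CD164. CD63 (ENSOCUG00000024081), a tetraspanin of lysosomes and exosomes, had 109, 97.5, 99.5, 107 and 95.5 CPM in non-treated valves and 148, 131, 139.7, 132 and 148 CPM after serotonin. It had 129, 135, 118, 123 and 140.4 CPM after pergolide and 115, 127, 129, 112 and 133 CPM after dexfenfluramine. Every treated valve was above every non-treated valve. CD63 rose for serotonin (0.46 ± 0.07), pergolide (0.35 ± 0.07) and dexfenfluramine (0.28 ± 0.07). The serotonin call was lost without any 1 of non-treated replicates 2 and 5 and serotonin replicate 1 (log2 fold changes from 0.43 to 0.44), with the replicate block (0.46) and with only the 2 groups compared (0.44), and the dexfenfluramine call with svaseq variables in edgeR (0.28).

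CD164 (ENSOCUG00000029127), a sialomucin of endosomes and the cell surface, had 91.6, 89.7, 113, 98.5 and 98.7 CPM in non-treated valves and 126, 118, 114, 118 and 122 CPM after serotonin. It had 142, 152, 137, 136 and 142 CPM after pergolide and 136, 143, 133, 128 and 135 CPM after dexfenfluramine. Here too every treated valve lay above the non-treated valves. CD164 rose by 0.28 ± 0.07 for serotonin, 0.53 ± 0.07 for pergolide and 0.46 ± 0.07 for dexfenfluramine. For serotonin the call was lost without any 1 of non-treated replicates 1, 2, 4 and 5 and serotonin replicates 1, 2, 4 and 5 (log2 fold changes from 0.24 to 0.28), and also with svaseq variables in edgeR (0.19), with DESeq2's size factors, with upper-quartile factors and with the most abundant gene left out (0.27, 0.27 and 0.25). It was lost as well without the filter, with at least 10 counts in every valve, with the replicate block and with only the 2 groups compared.

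CD2AP (ENSOCUG00000005026), an adapter between membrane proteins and actin, had 66.7, 64.5, 80.6, 57.1 and 85.4 CPM in non-treated valves and 76.2, 81, 83.9, 72.9 and 78.4 CPM after serotonin. It had 55, 50.1, 49.5, 50.1 and 49.6 CPM after pergolide and 48, 51.9, 56.2, 57.4 and 49.7 CPM after dexfenfluramine. The pergolide valves lay below all non-treated valves, and dexfenfluramine replicate 4 reached the lowest non-treated valve. CD2AP fell for pergolide (-0.48 ± 0.09) and dexfenfluramine (-0.43 ± 0.09), with 0.14 ± 0.09 for serotonin. CD200, a ligand that restrains myeloid cells, rose for both drugs (0.44 ± 0.15 and 0.41 ± 0.15), and CD109, a TGF-β co-receptor, and the tetraspanin CD9 rose for dexfenfluramine (0.56 ± 0.18 and 0.61 ± 0.23). The CD200 calls were lost without any 1 of non-treated replicates 1, 2, 3 and 4 and pergolide replicates 2, 4 and 5 (log2 fold changes from 0.34 to 0.45) and without any 1 of dexfenfluramine replicates 1, 2, 3 and 4 and non-treated replicates 1, 2, 3 and 4 (log2 fold changes from 0.32 to 0.45). Those of CD109 and CD9 were lost without any 1 of dexfenfluramine replicates 1, 2 and 3 and non-treated replicates 1 and 4 (log2 fold changes from 0.42 to 0.52) and without any 1 of dexfenfluramine replicates 1, 2, 3 and 5 and non-treated replicates 1, 4 and 5 (log2 fold changes from 0.43 to 0.66), and for pergolide CD109 was called without any 1 of non-treated replicates 2 and 5 and pergolide replicate 3 (log2 fold changes from 0.57 to 0.63), in limma-voom and with 1 RUVr factor. Leaving out both outlying valves ended the calls of CD200, CD109 and CD9, as did svaseq variables in edgeR, and limma-voom and DESeq2 did not call CD200. CD34, an antigen of endothelium and progenitors, was not called (0.30 ± 0.12 for dexfenfluramine), but was for dexfenfluramine without any 1 of dexfenfluramine replicate 5 and non-treated replicate 2 (log2 fold changes from 0.38 to 0.40), with 1 RUVr factor and with upper-quartile factors. CD9 was lowest in non-treated replicate 4 and highest in dexfenfluramine replicate 3 (87.6 to 174 CPM after dexfenfluramine). CD36, a receptor that takes up fatty acids, ranged from 33 to 93 CPM in non-treated valves, from 52.3 to 115 CPM after pergolide and from 6.48 to 101 CPM after dexfenfluramine and was not called (0.66 ± 0.42 and -0.05 ± 0.42). Its lowest value was that of dexfenfluramine replicate 3, which also had the lowest adipocyte and cardiomyocyte sums, and the part of those cells was not tested.

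The title of the supplementary list names comparisons with untreated controls, while the study's text speaks of several comparisons, so that a part of the comparisons between treatments in the choice of the genes is not excluded. They also use the same treated valves. The shares of all tested genes are therefore not a like comparison, and nothing about these genes is read from the counts. Pergolide against serotonin gave 16 calls of 47 (34%), beside 27.5% of all tested genes, with 10 higher after pergolide, beside 12.4%, and 6 lower, beside 15.1%. Dexfenfluramine against serotonin gave 15 (31.9%), beside 30.3%, with 9 higher, beside 13.9%, and 6 lower, beside 16.4%. Without both outlying valves the counts were 18 and 13, beside 2623 and 2533 calls over all genes. Pergolide against serotonin gave 10 without serotonin replicate 2, beside 2130 calls over all genes. Whichever 1 valve was left out, 10 of the 16 and 13 of the 15 calls were kept. Of the 47 genes, those with the smallest p were IL36A, CSF2RB and CD2AP in both comparisons. By edgeR's quasi-likelihood test with Benjamini-Hochberg adjustment, IL36A differed by -0.53 ± 0.07 (adjusted p = 1.68e-05) between pergolide and serotonin and by -0.50 ± 0.07 (adjusted p = 3.39e-05) between dexfenfluramine and serotonin. For CSF2RB the same edgeR test gave -0.57 ± 0.08 (adjusted p = 2.91e-05) and -0.55 ± 0.08 (adjusted p = 3.91e-05), and for CD2AP -0.62 ± 0.09 (adjusted p = 4.03e-05) and -0.58 ± 0.09 (adjusted p = 8.68e-05). In these 3 genes each valve of either drug was below each serotonin valve.

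CXCR4 showed the widest difference of the called genes between dexfenfluramine and serotonin, 1.79 ± 0.29 (edgeR, adjusted p = 9.97e-05), and pergolide against serotonin gave 1.07 ± 0.30 (edgeR, adjusted p = 0.0105), with every drug-treated valve above every serotonin valve. CCL9 was lower after both drugs than after serotonin (-1.25 ± 0.24 and -1.17 ± 0.24; edgeR, adjusted p = 0.000617 and 0.00101). STAT4 was higher by 1.15 ± 0.23 and 1.15 ± 0.23 (edgeR, adjusted p = 0.000656 and 0.00061), and C1R by 0.66 ± 0.16 and 0.65 ± 0.16 (edgeR, adjusted p = 0.004 and 0.00435). STAT4 lost both of these calls with svaseq variables in edgeR and C1R the one of dexfenfluramine against serotonin, and 8 of the 16 and 9 of the 15 calls were kept, while over all genes the calls went from 2389 to 1549 and from 2631 to 1391. In all, 13 genes were called in both comparisons, which share the serotonin valves.

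Dexfenfluramine against pergolide gave 0 calls among the 47 genes by edgeR, limma-voom and DESeq2, as among all tested genes in edgeR (0.0%), and 5 genes at an unadjusted p under 0.05. The smallest p were those of TNFAIP3, CD59 and CXCR4. In TNFAIP3 each dexfenfluramine valve was above each pergolide valve, with 0.64 ± 0.13 (edgeR, adjusted p = 0.335), and by the same test CD59 gave 0.49 ± 0.18 (adjusted p = 0.655) and CXCR4 0.71 ± 0.26 (adjusted p = 0.655). With 1 RUVr factor in the edgeR fit, TNFAIP3 was called (0.64), 1 of 115 calls among the 8683 genes. The log2 differences between the drugs over the 47 genes ran from -1.39 (CXCL10) to 0.71 (CXCR4), with a median of 0.02. A p-value above the threshold does not show that the drugs act alike, and the doses differ.

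**Figure D4:**
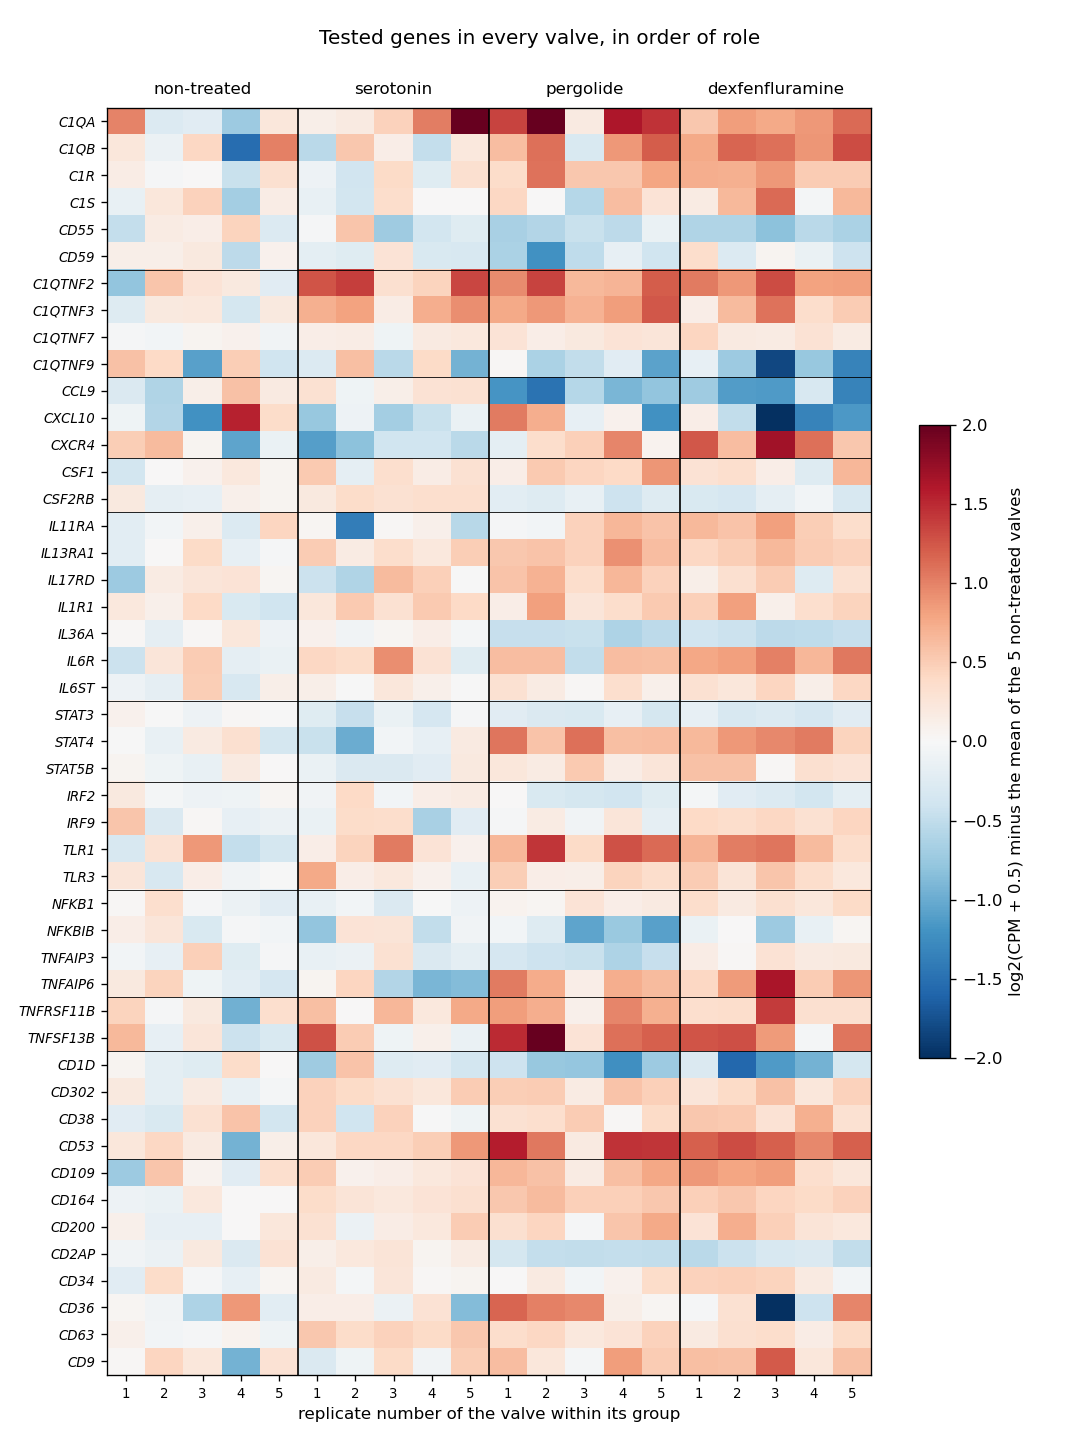
Log2(CPM + 0.5) of the 47 tested genes (top to bottom, in order of role) in each of the 20 valves (left to right, by group and replicate), minus the mean of the 5 non-treated valves; red is higher, blue is lower, and the scale ends at 2 on either side. STAT4, CD53 and C1QTNF2 are red in most drug-treated valves, and CCL9 and CD1D are blue in most of them.

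Over the lists of complement, interferon, interleukin, NF-κB, TNF, chemokine and antigen presentation genes together, 32 genes outside the 49 were tested. Of these, 8 were called higher and 11 lower for pergolide, 12 higher and 9 lower for dexfenfluramine, and 0 for serotonin. Beside them stand 12.1% higher and 12.7% lower of all tested genes for pergolide and 13.5% and 15.4% for dexfenfluramine. In both directions together the calls were 59.4% and 65.6% of the list genes, beside 56.7% and 66.1% of the tested genes with a symbol. With svaseq variables in edgeR 8 of the 19 and 5 of the 21 calls were kept, and in limma these variables also ended the pergolide calls of C4A and RLA-A1. Other alternatives that left out no single valve ended calls too, among them those of CISH, IFIT3, IRAK3, TNIP1 and TRAF6 for pergolide and of BCL10, C8A, CHUK, GBP1, MASP1, OSMR, PIAS1 and TRAF6 for dexfenfluramine. At an unadjusted p under 0.05 serotonin had 6, and limma-voom called 0 and DESeq2 1. Pergolide gave 19, dexfenfluramine 16 and serotonin 2 in edgeR without both outlying valves, the last also without non-treated replicate 3 alone (2). Their median log2 fold change was -0.03 for serotonin, 0.17 for pergolide and 0.21 for dexfenfluramine. Since their symbols too come from the list of DEGs, these counts and medians support no direction.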

How the data were processed

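RNA of 20 rabbit tricuspid valves was sequenced by the authors after ribosomal RNA depletion, as stranded libraries. Per the labels, reads were aligned with TopHat2 2.1.1 to the rabbit genome and counted per Ensembl gene with HTSeq. The deposited values are counts, whole numbers that were not normalized. The study's methods name HTSeq's union mode for the counting. The annotation release and the strand setting are not given in the sources used here, so that how reads of overlapping genes were assigned is not fully known.

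All valves were fitted together in edgeR 4.0.16 (R 4.3.3) by group, with TMM factors, the filterByExpr filter (8683 genes kept), quasi-likelihood tests that are two-sided, and Benjamini-Hochberg adjustment over these genes with a threshold of 0.05. CPM use the TMM-scaled library sizes. All pairs of the 4 groups were compared. With 3247091 to 5921025 counts per valve, genes under 1 CPM rest on few reads, and 3 counts were taken as the floor.

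Members and gene lists were chosen with earlier results of these data known. Symbols come only from the study's supplementary list of DEGs, since the deposited table has identifiers alone and the reference tables have no Ensembl identifiers. Values of every valve were given for the 3 largest rises and 3 largest falls of each treatment against non-treated valves among tested members whose mean log2 CPM was no lower than 1, for members called with serotonin, and for the 3 smallest p in each comparison between treatments. Outside the members, each list was to be represented per treatment by the gene with the smallest p and by up to 3 called genes. Other genes were named after their values were seen. Marker lists and pathway lists were written from general knowledge.

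Alternatives were limma-voom (limma 3.58.1), 4 svaseq variables (sva 3.50.0) in limma and edgeR, 1 RUVr factor, DESeq2 1.42.0, its size factors and upper-quartile factors in edgeR, the most abundant gene left out, the filter left out, a minimum of 10 counts per valve, a replicate block, only the 2 groups compared, a threshold of 0.01, and each valve left out in turn. The fit without non-treated replicate 3 and dexfenfluramine replicate 3 and the description of genes with a corrected identifier were added after seeing the data. Python 3.11.15 (pandas 2.3.3, numpy 2.4.6, scipy 1.17.1, matplotlib 3.10.9) was used for tables and figures. CCL21 and NFKBIE, with shortened identifiers, and genes without a symbol were left out.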

Additional observations from a re-analysis of the deposited data

Results flagged for a closer look

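In 7 of 76 groups of 5 valves examined (19 genes in 4 groups), 1 valve lay far from the other 4, with a gap to its nearest neighbour above 0.71 of the whole range. For independent, normally distributed values about 1 in 20 such groups would be marked. The 19 genes were chosen in part by their fold changes and share the same valves, so that no excess is read from the 7. C1QTNF3 was 136 CPM in pergolide replicate 5, with the others between 92.5 and 104 CPM. CD1D was 27.5 CPM in serotonin replicate 2, against 10.9 to 15.6 CPM. CD2AP was 55 CPM in pergolide replicate 1, against 49.5 to 50.1 CPM. CD59 was 31.5 CPM in non-treated replicate 4, against 48.3 to 52.1 CPM, and 54.9 CPM in serotonin replicate 3, against 36.2 to 39.4 CPM. TNFAIP3 was 23.5 CPM in non-treated replicate 3, against 14.1 to 16.6 CPM, and 20.7 CPM in serotonin replicate 3, against 13.7 to 15.5 CPM. What set these valves apart was not tested.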

How the results depend on the processing

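Counts of called genes among the 47 were 2 for serotonin, 22 for pergolide and 26 for dexfenfluramine against non-treated valves, 16 for pergolide and 15 for dexfenfluramine against serotonin, and 0 for dexfenfluramine against pergolide (edgeR, 5 at an unadjusted p under 0.05, and 0 in limma-voom and DESeq2). Among the 32 list genes outside them the counts against non-treated valves were 0, 19 and 21 (for serotonin 6 at an unadjusted p under 0.05, 0 in limma-voom and 1 in DESeq2). For serotonin the count of 2 became 7 with 1 RUVr factor, 5 in DESeq2, 1 with DESeq2's size factors, upper-quartile factors, the most abundant gene left out, no filter or at least 10 counts in every valve, and 0 at a threshold of 0.01 and with only the 2 groups compared. It became 5 without both outlying valves. At the 0.01 threshold pergolide gave 13, dexfenfluramine 11 and pergolide against serotonin 7. With svaseq variables dexfenfluramine gave 9 in limma and 8 in edgeR, and with 1 RUVr factor dexfenfluramine against pergolide gave 1. For the list genes serotonin gave 1 with 1 RUVr factor, 1 in DESeq2 and 2 without both outlying valves, pergolide gave 8 at the 0.01 threshold and 8 and 9 with svaseq variables in limma and edgeR, and dexfenfluramine gave 9, 6 and 6, and 13 with only the 2 groups compared. The cause was not tested for any of these.

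With each valve left out in turn, counts among the 47 genes ranged from 0 to 5 for serotonin, 17 to 24 for pergolide, 19 to 29 for dexfenfluramine, 10 to 15 and 13 to 18 for the drugs against serotonin, and were 0 for dexfenfluramine against pergolide. Among list genes they ranged from 0 to 2, 15 to 20 and 14 to 20 against non-treated valves. The cause was not tested.

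With the replicate block, the counts were 0 for serotonin, 21 for pergolide, 25 for dexfenfluramine, 15 and 15 for the drugs against serotonin and 0 between the drugs (main counts 2, 22, 26, 16, 15 and 0), and 0, 21 and 19 among list genes. In the 30 pairs of valves that share a number, correlations of residuals ran from -0.34 to 0.49, and 5 of 20 valves correlated best with their own number, so the numbers were not used as pairs.

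For 19 results, the comparison with the smallest p of each gene given valve by valve, 404 of 429 alternative values kept the direction and the side of the threshold, 15 lost the call, 10 gained one and 0 reversed. The 15 belong to C1QTNF2 (from 0.95 to 0.98), TNFSF13B (from 2.16 to 2.19) and CD59 (from -0.56 to -0.46) for pergolide, CD1D for dexfenfluramine (from -0.67 to -0.29) and CD63 for serotonin (from 0.43 to 0.46). Over all 45 calls of these genes in the 6 comparisons, 911 of 1023 alternative values kept the call, and 3 calls were lost in most of theirs, with the kept values in brackets: CD164 for serotonin (6 of 23), CSF2RB for dexfenfluramine (11 of 23) and TNFAIP3 for pergolide against serotonin (8 of 23). Identifiers corrected to 11 digits and matched by symbol in the reference tables were planned and not run, because those tables have no Ensembl identifiers. With 5 valves per group and no more than 5921025 counts in a valve, genes of few reads such as TNFSF13B, TLR1 and CXCL10 were measured with wide errors, and most immune genes without a symbol were not analysed here.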
